A study of Mus musculus with 4 samples.

Results

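Cytosolic ribosomal protein (RP) genes were described in single-cell RNA sequencing of the mouse hippocampus. The RP genes were chosen by symbol, as those written Rpl or Rps with a number and at most a short ending, together with Rplp0, Rplp1, Rplp2 and Rpsa. The rule found 83 of the 31055 genes in the files, 51 of the large and 32 of the small ribosomal subunit. The mice were 2 male Dp(10)2Yey mice (Dp2Yey in the labels), which carry on 1 copy of chromosome 10 a duplication of the segment from Prmt2 to Pdxk, and 2 male wild-type (WT) littermates. All were 3 months old and on a C57BL/6J background. Each mouse gave 1 library, and preparation took 2 consecutive days with 1 mouse of each genotype a day, but the labels do not tie a day to a library. The whole hippocampus was dissociated, so each library holds all cell types that survived, and the value of a gene is its number of unique molecular identifiers (UMIs), 1 for each captured RNA molecule.

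A ribosome is built from RNA and a set of proteins, most of them present in a single copy, and the genes for these proteins are transcribed in every cell in near-fixed proportions. Many of their mRNAs begin with a tract of pyrimidines (a terminal oligopyrimidine, or TOP, tract), through which mTORC1 signaling and the protein LARP1 control their translation together. A few RP genes have a paralog whose mRNA is made in particular cells, such as Rpl3l in muscle and Rpl10l in the testis.

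After removal of 1 cluster of 35 cells with a median of 34.8% globin UMIs, 6246 cells with 23602971 UMIs were kept. The libraries held 2955009 to 8889479 UMIs in 1014 to 2203 cells, with medians of 2118 to 3703 UMIs per cell. Cells were clustered without the RP genes, and the clusters were named from fixed markers as "like" a cell type. The microglia-like class joined 3 clusters. Of these, 1 cluster of 558 cells had a median of only 798 UMIs and is called the low-RNA cluster. The largest was led by activation genes such as Il1a and Tnf, with Ccl3 and Ccl4 as the only microglial markers among its 10 leading genes. The border macrophage-like cluster was also led by S100a8 and S100a9, which mark neutrophils, and the endothelial-like cluster by the globin genes Hbb-bs, Hba-a1 and Hba-a2. Among all barcodes, 8 sequences occurred in 2 libraries.

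All 83 RP genes were found in the mm10 annotation (GRCm38, GENCODE vM21), spread over 19 chromosomes. Of the 4 on chromosome 10, 0 lay in the duplicated segment (chr10:76207222-78464975), and the nearest was Rps15 (chr10:80292453-80294114), 1827 kb away. RefSeq promoter sequences (GRCm38.p6) were matched for 63 of the RP genes. A TOP-like tract was counted as a C followed by at least 5 bases that are each C or T, on the strand of the gene, with its first base at most 20 bases from the annotated start. Of several promoters of a gene, the one nearest the GENCODE start was used. A tract was found in 39 of the 63 (61.9%), against 31.9% of the 27025 genes with a promoter. The longest such run had a median length of 7 bases in RP genes and 4 in all genes. The RefSeq start lay within 20 bases of the GENCODE start for 28 of the 63. The sequences of the genes on which the results below turn are shown from 19 bases before the annotated start, 5′ to 3′ on the strand of the gene, with the tract in capitals. Rpl13, Rps27l, Rpl22l1, Rpl41 and Rpl7l1 departed from the other RP genes in single cell types. Rps27 and Rpl22 are paralogs of the second and the third of these. Rps15 and Rpl35 differed between libraries.
Rpl13 (chr8:123102331-123102360, + strand): tcaCTTCCCTTTCgcctgattttgattggc
Rps27l (chr9:66946067-66946096, + strand): ctctccaCTCCTCCCCgccgcctctatccc
Rps27 (chr3:90213638-90213667, - strand): caggatttccgctttcgCTCCTTTCCggcg
Rpl22l1 (chr3:28805489-28805518, + strand): gtgcgtgcggcgcaagcccgttCTCTTCCC
Rpl22 (chr4:152325707-152325736, + strand): cgacttcgccctgggaaaagcaatagctgg
Rpl41 (chr10:128549158-128549187, - strand): acgacacacgggccggctcggaagtgacga
Rpl7l1 (chr17:46782646-46782675, - strand): cccggtgaggctgcgcaagcgcagtagctg
Rps15 (chr10:80292412-80292441, + strand): CCCTCCCggcagagctcgcgataactgcgc
Rpl35 (chr2:39005121-39005150, - strand): aagtcggccccgCCCTTTCCTCTTTCTCTC
Rps27 and Rps27l each held a tract of 9 bases, while Rpl41, Rpl7l1 and Rpl22 held none that met the definition. The tract began at -16, -12 and -19 from the annotated start in Rpl13, Rps27l and Rps15, and ended before that start. In these genes it thus lies outside the annotated mRNA, and such tracts are also in the count of 39. The tracts of Rps27 (-2) and Rpl35 (-7) ran across the start, and that of Rpl22l1 (3) began after it. A match describes these letters in this window only. The RefSeq start lay 493 bases inside the GENCODE gene for Rpl35, 137 for Rpl41 and 72 for Rpl22l1, and at most 22 bases from the GENCODE start for the other 6 genes shown, so the windows of these 3 depend on the annotation.

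RP genes gave 2616842 UMIs, 11.09% of all UMIs. The WT libraries held 11.75% and 10.8% in replicates 1 and 2, and the Dp2Yey libraries 11.4% and 10.91% (mean 11.2% ± 0.441, SD, n = 4). The genotypes overlapped. Of the 83 genes, 80 had at least 1000 UMIs and 0 had none. Rps29, a zinc-binding protein of the small subunit, was highest with 134550 UMIs (4.99% ± 0.575 of RP UMIs, SD, n = 4). It was followed by Rplp1 (78737 UMIs), an acidic protein of the stalk that recruits translation factors, by Rps21 (66555), by Rpl41 (65360), the shortest protein of the ribosome, and by Rpl37 (58805). The 5 highest genes together gave 15.4% of RP UMIs and the 10 highest 26.0%. UMIs of this assay come from the 3′ end of each mRNA, so these are counts of captured molecules.

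Tissue-restricted paralogs were close to absent. Rpl10l had 1 UMI and Rpl3l had 5 UMIs in all 6246 cells, against 25874 for Rpl10 and 20577 for Rpl3. Rpl39l had 19 UMIs against 48424 for Rpl39. These 3 genes were too low to be tested, which left 80. The remaining paralogs were expressed, with 9948 UMIs for Rpl22l1 against 18402 for Rpl22, 5324 for Rps27l against 57411 for Rps27, and 1348 for Rpl7l1 against 18986 for Rpl7. Rps4x gave 28158 UMIs, and its paralog Rps4l was not among the RP genes that the rule found in the files. Among the ribosomal protein genes that the rule leaves out, Fau gave 67510 UMIs and Rpl36al 8258. The files also list near-identical copies of some RP genes with UMIs of their own, such as Rps27rt (3021), Rpl10-ps3 (1180) and Rpl27-ps3 (758), and how the counting split reads between a gene and its copy is not known, so the levels of Rps27, Rpl10 and Rpl27 are uncertain to that extent.

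The RP share differed 3.81-fold between the highest and the lowest of the 10 classes with at least 10 cells in every library. Immature neuron-like cells, led by Sox11, Neurod1 and genes of dividing cells, were highest, with 20.4% and 17.9% of UMIs in the WT libraries and 17.8% and 21.6% in the Dp2Yey libraries (19.4% ± 1.85, SD, n = 4). Border macrophage-like cells followed at 18.1% ± 3.26 and microglia-like cells at 14.4% ± 0.922. Choroid plexus-like (12.8% ± 0.521), endothelial-like (12.6% ± 0.807) and neuron-like cells (12.2% ± 3.29) lay close together. Oligodendrocyte precursor-like (8.40% ± 0.366) and ependymal-like cells (7.97% ± 0.566) were lower. Oligodendrocyte-like cells had 6.44% ± 0.0811. Astrocyte-like cells were lowest, at 4.94% and 4.69% in WT and 5.47% and 5.28% in Dp2Yey (5.10% ± 0.346). Neighbours in this order overlapped between libraries, with 3 exceptions. Every library of neuron-like cells lay above every library of precursors, every library of ependymal-like cells above every library of oligodendrocyte-like cells, and these above every library of astrocyte-like cells. The shares are given as a description without a test.

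**Figure D1:**
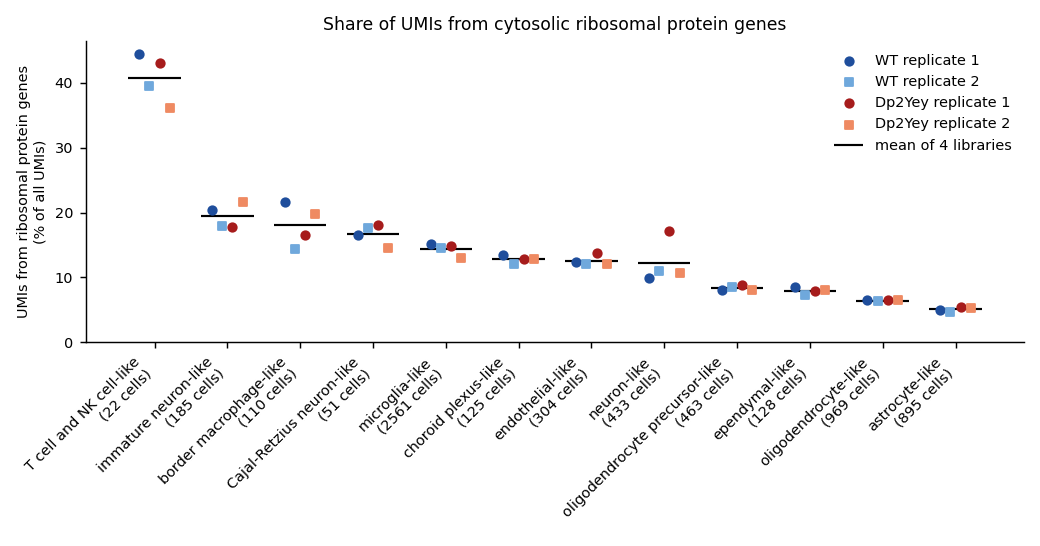
Share of UMIs from RP genes (y axis, % of all UMIs) in each cell class (x axis, number of cells in brackets) and library (points), with the mean of the 4 libraries as a line. T and NK cell-like cells stand highest at 40.8% from 22 cells, and astrocyte-like cells lowest at 5.10%.

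Cells too few to test stood at the upper end. The 22 T and NK cell-like cells held 44.5%, 39.4%, 43.1% and 36.1% RP UMIs in WT replicates 1 and 2 and Dp2Yey replicates 1 and 2, from 2 to 11 cells each. No other class reached these values in any library. The 51 Cajal-Retzius neuron-like cells, an early-born neuron type that secretes reelin, had 16.7% ± 1.52 (SD, n = 4), above the 12.2% of the neuron-like class as a mean, but below Dp2Yey replicate 1 of that class.

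The low-RNA cluster of microglia-like cells held 30.6%, 27.8%, 29.1% and 24.99% RP UMIs in the 4 libraries (28.1% ± 2.37). The highest mean of any other cluster, apart from the T and NK cell-like cells, was 19.4%. The 2 other microglia-like clusters held 13.3% ± 0.764 (1480 cells, led by Il1a and Ccl4) and 13.8% ± 0.396 (523 cells, led by the homeostatic genes P2ry12 and Tmem119 together with the heat shock gene Hspa1b). Without the low-RNA cluster the microglia-like share was 13.4% ± 0.642, against 12.8% in choroid plexus-like cells. At a clustering resolution of 0.5 it was 17.1% ± 1.36, since a cluster of 1142 cells led by Atf3 and Klf4 then had 0 microglial markers among its 10 leading genes and stayed unnamed. The order of the share by depth differed between classes. In immature neuron-like cells, split by UMIs into 3 groups of equal size in each library, the mean fell from 22.1% ± 3.84 in the lowest over 20.8% ± 0.946 to 18.3% ± 2.57 in the highest group. In border macrophage-like cells it ran from 21.8% ± 3.63 over 20.97% ± 7.56 to 16.2% ± 3.66. In microglia-like cells it was 20.1% ± 4.87 in the lowest, 11.4% ± 0.836 in the middle and 15.1% ± 0.592 in the highest group. That split included the low-RNA cluster (median 798 UMIs), and the lowest group had medians of 735 to 1188 UMIs in the libraries. No split was made without that cluster, so a trend with depth in the other microglia-like cells is not shown. In astrocyte-like cells the mean was 5.89% ± 0.731, 4.45% ± 1.34 and 5.26% ± 0.592. Elsewhere the lowest group was not always highest. The means were 9.57%, 13.4% and 12.7% in endothelial-like, 7.24%, 8.07% and 8.03% in ependymal-like, 11.9%, 11.7% and 13.3% in choroid plexus-like, 14.7%, 17.5% and 9.91% in neuron-like and 6.75%, 7.05% and 5.96% in oligodendrocyte-like cells. Precursors had 9.82%, 7.95% and 8.39%.

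Mitochondrial RNA, which rises in damaged cells, made up 17.7% of the UMIs of neuron-like cells and 8.15% to 14.7% of those of astrocyte-like cells in the 4 libraries, against 2.87% in microglia-like cells. With mitochondrial UMIs left out, the share rose to 15.4% ± 5.24 in neuron-like and 5.79% ± 0.374 in astrocyte-like cells. Astrocyte-like cells stayed lowest, but the mean of neuron-like cells then lay above those of microglia-like (14.8%), choroid plexus-like (13.46%) and endothelial-like cells (13.45%), with Dp2Yey replicate 1 at 23.2% and the other 3 neuron-like libraries at 12.005% to 13.2%. Ependymal-like cells (8.81%) and precursors (8.78%) also changed places. As a median over cells, neuron-like cells (13.7%) again lay above microglia-like cells (13.4%). With cells over 20% mitochondrial UMIs removed instead, the share of neuron-like cells went the other way, to 10.2% ± 2.91, below choroid plexus-like (12.98%) and endothelial-like cells (12.6%). The part of mitochondrial RNA and of depth in these shares was not tested.

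Each class was then compared with the mean of the other classes, gene by gene, to ask whether single RP genes followed the share (edgeR quasi-likelihood test on UMIs summed per library and class, adjusted p under 0.01 over the 9733 genes tested). The log2 differences are on the scale of TMM-normalized UMIs. In astrocyte-like cells 79 of 80 RP genes were lower and 0 higher, with a median log2 difference of -1.06 against 0.17 over all genes, where 8.22% of all genes tested were called lower and 26.3% higher. In oligodendrocyte precursor-like cells 64 were lower and 2 higher (median -0.83, against 8.13% of all genes lower and 27.8% higher). In oligodendrocyte-like cells 54 were lower and 0 higher (median -0.63, against 12.9% and 29.5%). In ependymal-like cells 34 were lower and 0 higher (median -0.51, against 8.56% and 25.7%). In these 4 classes the RP genes called higher were Rpl13 and Rps27l, both in precursors, while the median over all genes lay between 0.06 and 0.20.

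RP genes were higher in 3 classes. In microglia-like cells 71 of 80 were higher and 0 lower (median 0.89 against 0.10 over all genes, where 35.1% of all genes were higher and 14% lower). In immature neuron-like cells 66 were higher and 0 lower (median 0.70 against 0.03 over all genes, with 19.5% and 9.08% of them called). In border macrophage-like cells 56 were higher and 0 lower (median 0.77 against -0.40 over all genes, with 12% and 4.58% of them called). Neuron-like cells were mixed, with 25 higher and 4 lower (median 0.32 against 0.13 over all genes, with 26.1% and 9.39% of them called). The 4 lower genes were Rplp0, Rpl18, Rps27l and Rpl7l1. Few were called in endothelial-like cells, 5 higher and 1 lower (median 0.21 against 0.11 over all genes, with 22.9% and 6.11% of them called), or in choroid plexus-like cells, 9 higher and 1 lower (median 0.09 against -0.96 over all genes, with 11.1% and 13.7% of them called). Relative to the median of all genes, the RP median was thus 1.17 higher in border macrophage-like and 1.05 higher in choroid plexus-like cells. These differences were 1.04 and 0.74 with DESeq2, and 1.24 and 1.13 with RLE size factors in edgeR. The 2 classes had the fewest UMIs of those tested (305150 and 301725), so many of the other genes had few counts there. The part of depth in these medians was not tested. The called RP genes of largest size in choroid plexus-like cells were Rps27l (1.74), Rpl41 (1.35) and Rpl22l1 (1.12), with Rpsa lower (-0.80). In endothelial-like cells Rpl38 was 0.84 higher and Rpl22l1 0.45 lower. Without Dp2Yey replicate 1 the median was 0.47 in microglia-like, 0.14 in endothelial-like and 0.11 in neuron-like cells, and without Dp2Yey replicate 2 it was 0.44 in border macrophage-like and 0.55 in neuron-like cells. Without WT replicate 1 it was 0.52 in neuron-like cells, and with RLE size factors, DESeq2's own scaling, -0.33 in ependymal-like cells. The median in neuron-like cells turned to -0.35 when cells with over 20% mitochondrial UMIs were removed, and that in choroid plexus-like cells to -0.02 with RLE size factors.

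With library sizes set to the RP total, so that a difference is relative to the other RP genes, 712 of 800 pairs of gene and class (89.0%) lay within 0.5 of 0 on the log2 scale, a factor of 1.41. At the same time 226 of the 800 pairs (28.2%) differed at an adjusted p under 0.01. This scaling centers RP genes on 0 by construction and other genes not, so the 43.2% of pairs of other genes past that p is no like comparison. All 10 classes lay in that band for 40 of the 80 genes. Rps23, at the decoding center, had the narrowest range over the classes, 0.30. The median range of a gene was 0.92.

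**Figure D2:**
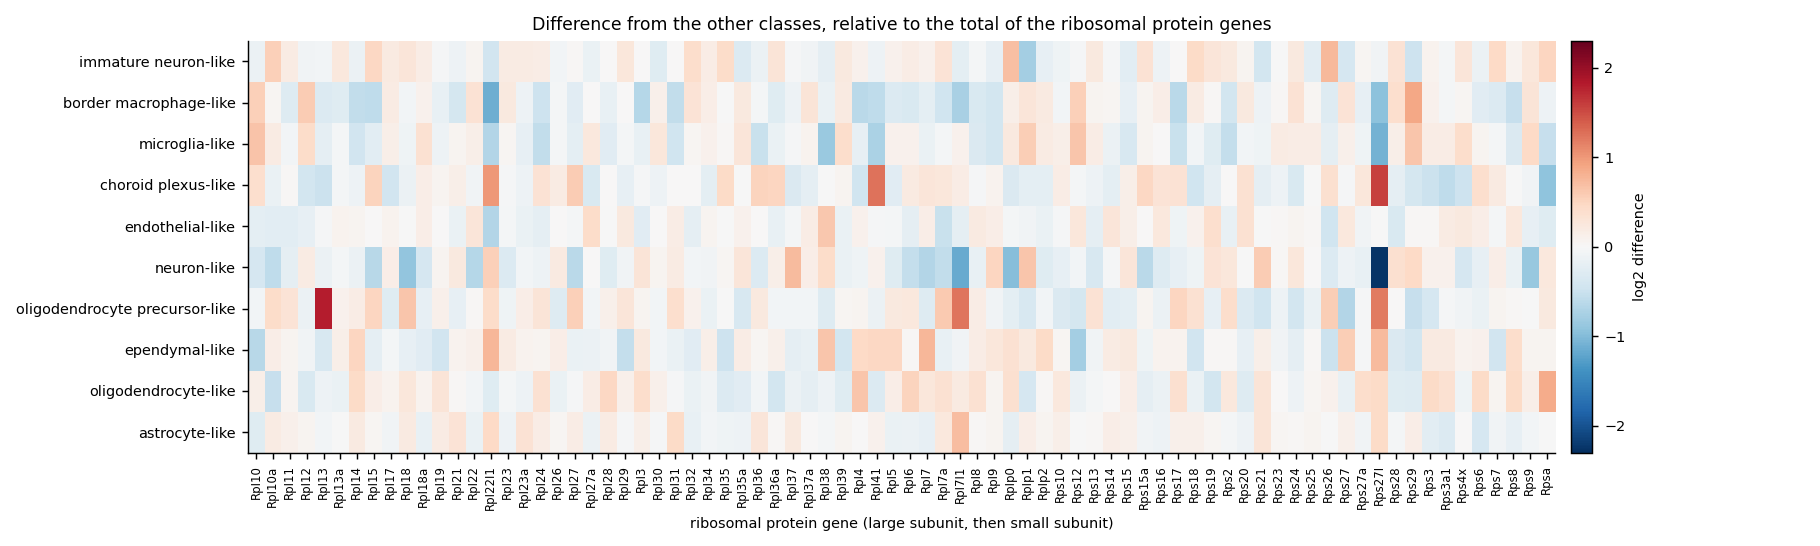
Heatmap of the log2 difference of the RP genes named on the x axis in each class (y axis) from the mean of the other classes, relative to the RP total (color scale from -2.3 to 2.3). Most cells of the map are pale, and Rpl13 in precursors (1.80) and Rps27l in neuron-like cells (-2.26) stand out.

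A gene was counted as an exception where it differed by at least 1 on that log2 scale with an adjusted p under 0.01. There were 9 exceptions of 800 pairs, 5 higher and 4 lower, in 5 genes. On the same measure 35.8% of all pairs of gene and class passed, which the scaling to the RP total fixes in part. Of the 5 genes, 3 were paralogs (Rps27l, Rpl7l1 and Rpl22l1).

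Rpl13 was the largest positive exception. It encodes a protein of the large subunit. In oligodendrocyte precursor-like cells it gave 7.01% and 6.08% of RP UMIs in the WT libraries and 6.27% and 7.01% in the Dp2Yey libraries (6.59% ± 0.488, SD, n = 4). In the other 9 classes the mean lay between 1.56% and 2.10%, and the highest single library there was at 2.27%. Relative to the RP total it was 1.80 higher on the log2 scale (SE 0.075, adjusted p = 1.5e-28). With Rps27l (log2 difference 0.36), it was 1 of the 2 RP genes called higher in precursors without that scaling (log2 difference 0.98, SE 0.155, adjusted p = 1.35e-07), where the median RP gene was 0.83 lower. Among cells with at least 100 RP UMIs, Rpl13 exceeded 4% of them in 313 of 397 precursors (78.8%) and in 0% to 5.61% of the cells of each other class. Clustering at a finer resolution of 0.5 split the precursors into 385 cells with precursor markers and 78 differentiating oligodendrocyte-like cells led by Bmp4, Gpr17 and Enpp6. Rpl13 gave 8.73%, 8.02%, 7.97% and 8.74% of RP UMIs in the first (8.36% ± 0.431) and 1.86%, 2.09%, 1.66% and 2.06% in the second (1.92% ± 0.199), close to the 1.99% ± 0.0541 of oligodendrocyte-like cells. The RP share itself was higher in the differentiating cells, at 11.2% ± 0.911 against 7.68% ± 0.387. The groups of cells did not overlap in either measure, and no test was made of this split. Rpl13 (chr8:123102350-123105244) overlaps Gm20388, Snord68 and Mir7079 on its strand. Gm20388, which runs through many genes, had 0 UMIs, and the neighboring genes Spg7 and Cpne7 had 606 and 113.

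Rps27l, a p53 target that encodes a paralog of Rps27, varied most. It was an exception in 4 classes. It gave 0.719%, 0.594%, 0.563% and 0.704% of RP UMIs in choroid plexus-like cells of WT replicates 1 and 2 and Dp2Yey replicates 1 and 2 (log2 1.57 higher, SE 0.15, adjusted p = 5.63e-13). In precursors it gave 0.518% ± 0.0787 (1.19 higher, SE 0.125, adjusted p = 3.22e-12). In microglia-like cells it gave 0.124% ± 0.0114 (1.09 lower, SE 0.142, adjusted p = 1.59e-09), or -1.07 from the median RP gene on the TMM scale. Its difference from 0 on the TMM scale had an adjusted p of 0.227 in edgeR. In neuron-like cells the 4 libraries held only 0.0762%, 0.0773%, 0.0305% and 0.0643%, from 95 UMIs in all (2.26 lower, SE 0.191, adjusted p = 2.52e-15). Every neuron-like library lay below every library of each other tested class. Rps27 itself ran from 1.39% ± 0.188 of RP UMIs in precursors to 3.03% ± 0.298 in ependymal-like cells.

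Rpl7l1, a paralog of Rpl7, had the fewest UMIs of the 80 genes. It gave 0.0964%, 0.0999%, 0.0932% and 0.117% of RP UMIs in precursors (1.24 higher, SE 0.181, adjusted p = 3.08e-08). On the TMM scale it was also 1.24 above the median RP gene, while its difference from 0 there had an adjusted p of 0.0288. In neuron-like cells it gave 0.024% ± 0.012 (1.15 lower, SE 0.266, adjusted p = 0.000278), from 37 UMIs. The value in neuron-like cells was -0.61 with an adjusted p of 0.0772 once cells with over 20% mitochondrial UMIs were removed, and it also missed the size limit without WT replicate 2 (-0.90) or Dp2Yey replicate 1 (-0.95). Rpl7l1 overlaps the noncoding gene Gm26904 on the other strand. Rpl22l1 gave 0.174%, 0.258%, 0.22% and 0.211% of RP UMIs in border macrophage-like cells (1.13 lower, SE 0.19, adjusted p = 2.55e-06), or -1.02 from the median RP gene on the TMM scale. Its difference from 0 on the TMM scale had an adjusted p of 0.364 in edgeR. In choroid plexus-like cells Rpl22l1 gave 0.802% ± 0.0465, above its paralog Rpl22 there (0.663% ± 0.0876). In neuron-like cells it also lay above Rpl22 as a mean (0.609% ± 0.206 against 0.47% ± 0.1175), but below it in WT replicate 1 and Dp2Yey replicate 1. In the other tested classes its mean lay below that of Rpl22. Rpl22 stayed between 0.47% and 0.85% in all tested classes. The comparison of Rpl22l1 with Rpl22 is one of captured 3′ ends, not of levels per length.

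Rpl41 was the one abundant gene among the exceptions besides Rpl13. In choroid plexus-like cells it gave 6.45% and 6.13% of RP UMIs in WT and 6.16% and 7.65% in Dp2Yey (6.59% ± 0.716), against 1.92% to 4.07% as means elsewhere (1.25 higher, SE 0.0779, adjusted p = 3.65e-20). The 4 libraries of choroid plexus-like cells lay above all others. It has no overlapping gene in the annotation (chr10:128548114-128549305).

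**Figure D3:**
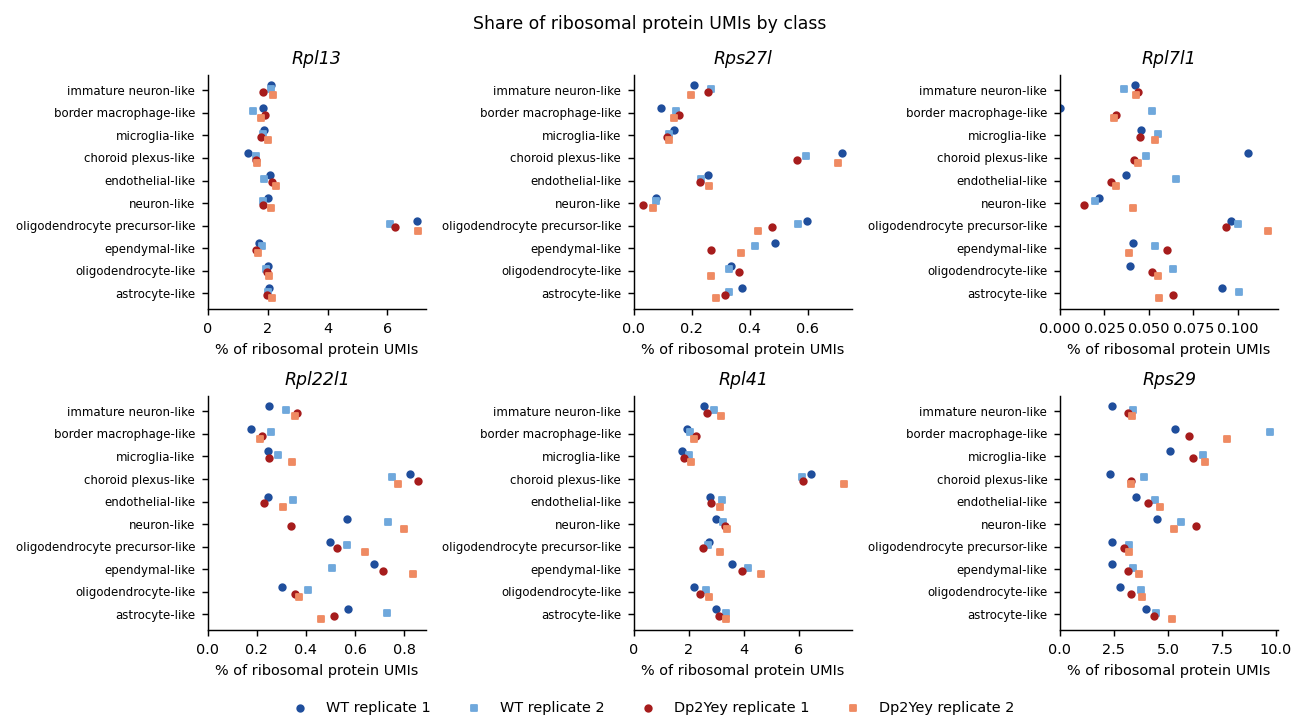
Share of RP UMIs (x axis, %) held by 6 RP genes in each tested class (y axis), with 1 point for each of the 4 libraries. Rpl13 stands apart in precursors (6.08% to 7.01%), Rpl41 in choroid plexus-like cells (6.13% to 7.65%) and Rps29 has its highest means in border macrophage-like and microglia-like cells (7.19% and 6.14%).

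Just inside the threshold lay Rps27l in microglia-like cells (-1.09), and just outside it Rpl22l1 in choroid plexus-like (0.99, and 1.03 from the median RP gene on the TMM scale), Rplp0 in neuron-like (-0.97) and Rps27l in border macrophage-like cells (-0.94). Rplp0 carries the stalk on which Rplp1 and Rplp2 sit. Among the other genes near the threshold, chosen after their values were seen, Rpsa, also known as the laminin receptor precursor, was 0.93 lower in choroid plexus-like and 0.85 higher in oligodendrocyte-like cells. Rpl18 and Rps9 were 0.91 and 0.88 lower in neuron-like cells. Rps29 was 0.88 higher in border macrophage-like cells (SE 0.0835), where it gave 5.33%, 9.74%, 5.98% and 7.72% of RP UMIs, and it gave 6.14% ± 0.732 in microglia-like cells. Rpl38 was 0.86 lower in microglia-like cells. Apart from Rps27l in microglia-like cells, each of these pairs had an adjusted p under 0.01 but a size under 1 relative to the RP total.

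Genes that act with the ribosome were counted from fixed lists in the same comparison. Among 7 tested genes that encode ribosomal proteins, Rack1 or copies of RP genes outside the rule, 7 were lower in astrocyte-like cells. In microglia-like cells 7 were higher. In immature neuron-like cells, where 66 RP genes were higher, 2 of the 7 were higher and 0 lower. In neuron-like cells 1 was higher and 1 lower. Of 7 translation elongation factors, 2 were lower and 0 higher in astrocyte-like cells, 4 were higher and 0 lower in microglia-like and 5 higher and 0 lower in immature neuron-like cells. Of 8 other genes with TOP mRNAs, such as Tpt1, Npm1 and Pabpc1, 7 were lower and 1 higher in astrocyte-like cells, 7 higher and 0 lower in immature neuron-like and 5 higher and 2 lower in microglia-like cells. Of 47 initiation factors, 9 were lower and 4 higher in astrocyte-like and 27 higher and 1 lower in microglia-like cells. In oligodendrocyte-like cells, where 54 RP genes were lower, 20 initiation factors were higher and 3 lower. Of 23 ribosome biogenesis genes, which process rRNA in the nucleolus, 15 were higher and 0 lower in immature neuron-like cells (median 0.94). In precursors 9 of them were higher and 0 lower (median 0.48), where 64 RP genes were lower. The 73 tested genes of the mitochondrial ribosome took another order. They were higher in choroid plexus-like cells in 33 cases with 0 lower (median 0.83), and lower in 24 cases and higher in 6 in microglia-like cells. The share of all genes called in each class is the one given above for the RP genes.

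Between genotypes, Dp2Yey was compared with WT within each class (2 against 2 libraries, edgeR as above). No RP gene passed an adjusted p of 0.01 in any of 10 classes (0 of 796 tests, with 0.0375% of all genes called) or in all cells summed (0 of 80, with 0% of all genes called), and DESeq2 also called 0. The lowest adjusted p of an RP gene was 0.925. At an unadjusted p under 0.05 there were 9 of the 796 tests (1.13%, against 3.39% over all genes) and 0 in all cells. With 2 libraries a group a permutation over libraries cannot give a two-sided p below 0.33. No class by genotype interaction was called for an RP gene either (0 of 80 against 0.349% of all genes in edgeR, 0 at an unadjusted p under 0.05 and 0 in DESeq2), and the smallest unadjusted p was 0.317, for Rpl31.

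The RP share by genotype overlapped in 8 of the 10 classes. In astrocyte-like cells both Dp2Yey libraries (5.47% and 5.28%) lay above both WT libraries (4.94% and 4.69%). Mitochondrial UMIs were 14.7% and 12.3% of the astrocyte-like total in WT and 12.7% and 8.15% in Dp2Yey, and with them left out the shares overlapped (5.80% and 5.35% in WT, 6.27% and 5.75% in Dp2Yey). In oligodendrocyte-like cells the genotype means differed by 0.0936 percentage points without overlap (6.47% and 6.32% in WT, 6.48% and 6.5% in Dp2Yey), and they too overlapped with mitochondrial UMIs left out (6.98% and 6.81% in WT, 6.97% and 6.81% in Dp2Yey). Per gene, 33 of 80 RP genes lay higher in both Dp2Yey astrocyte-like libraries than in both WT libraries, against 16.2% of all genes. In microglia-like cells 35 of 80 lay lower in both Dp2Yey libraries, against 14.8% of all genes. In endothelial-like cells 27 of 80 lay higher, against 15.8%. The RP genes of 1 library share its RP share, so these genes are not separate measurements, and the 3 classes were picked after their counts were seen. Within the microglia-like clusters, both Dp2Yey libraries lay below both WT libraries in the homeostatic cluster (14.04% and 14.23% in WT, 13.8% and 13.3% in Dp2Yey), while the genotypes overlapped in the largest (13.5% and 13.7% in WT, 13.7% and 12.1% in Dp2Yey) and in the low-RNA cluster. The low-RNA cluster held 117 of 429 and 122 of 660 microglia-like cells in WT and 137 of 509 and 182 of 963 in Dp2Yey, so its part of the class overlapped between genotypes.

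The median log2 difference of the RP genes was -0.13 in microglia-like, 0.12 in astrocyte-like and 0.08 in endothelial-like cells. With each library left out in turn these ran from -0.197 to -0.0392 (-0.0938 without the low-RNA cluster), from 0.0582 to 0.173 and from -0.0219 to 0.172, so the last changed sign, without Dp2Yey replicate 1. In neuron-like cells the median was 0.58 and 78 of 79 genes lay above 0. There, Dp2Yey replicate 1 had an RP share of 17.1%, against 9.98%, 11.02% and 10.7% in WT replicates 1 and 2 and Dp2Yey replicate 2. Its mitochondrial UMIs were 26.3%, against 23.8%, 16.3% and 10.9% in the same order, so WT replicate 1 came near it. With cells over 20% mitochondrial UMIs removed the median was 0.26. Without Dp2Yey replicate 1 it was -0.18. Without Dp2Yey replicate 2 it was 1.10 and 36 RP genes were called higher in neuron-like cells, against 2.16% of all genes, where the lone Dp2Yey library is assumed to vary like the WT libraries. In the same way, without Dp2Yey replicate 1, 9 RP genes were called lower in microglia-like cells, against 0.419% of all genes. In oligodendrocyte-like cells 2 were called lower, against 0.13%, and 1 higher, against 0.466%. In immature neuron-like cells 1 was called higher, against 0.47%.

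**Figure D4:**
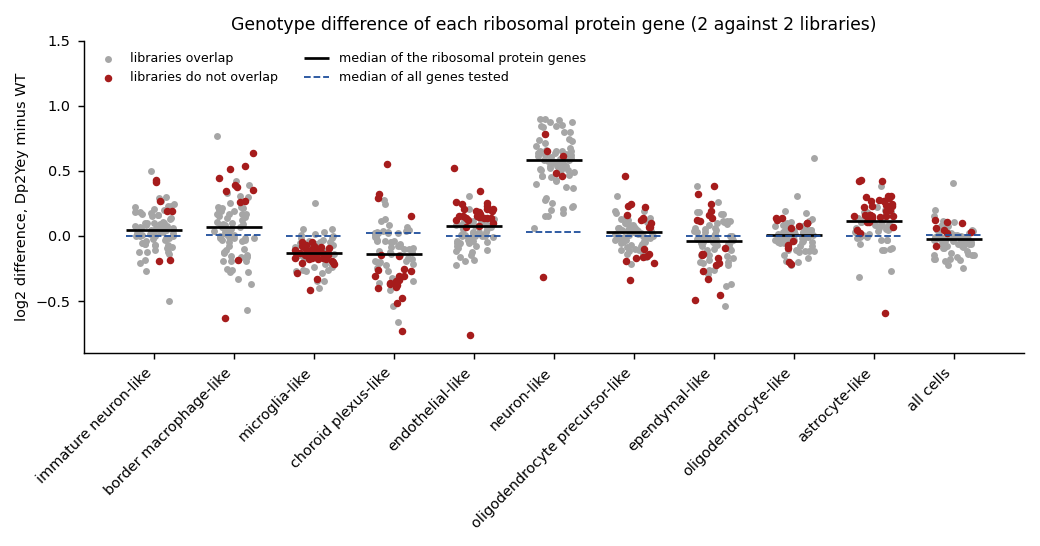
Log2 difference between Dp2Yey and WT of each RP gene (points) in each class and in all cells summed, with the median of the RP genes (solid line) and of all genes tested (dashed line). Red points are genes whose genotypes do not overlap. The RP median is 0.58 in neuron-like cells and lies between -0.14 and 0.12 elsewhere.

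By the rule for naming, the 2 genes of smallest p among those without overlap are given for all cells and 9 of the 10 classes. Of the 9 tests at an unadjusted p under 0.05, 3 were in astrocyte-like cells. Among these was Rpl10, chosen after its values were seen, with 367.2 and 252.6 CPM in WT against 408.9 and 402.3 in Dp2Yey (0.42 higher, unadjusted p = 0.0394, adjusted p = 0.998 in edgeR). Rpl31 and Rpl27 were 0.41 and 0.33 lower in microglia-like cells, where Rpl27 had 920 and 869.7 CPM in WT against 803.6 and 622.6 in Dp2Yey (unadjusted p = 0.032, adjusted p = 0.999 in edgeR). Rpl27 was also 0.50 lower in ependymal-like cells, with Rps27l 0.46 lower, and 0.21 lower in oligodendrocyte-like cells, with Rpl17 0.20 lower. Rpl35 and Rps27l differed by 0.46 and -0.34 in precursors, and Rpl35 and Rpl7l1 by 0.52 and -0.76 in endothelial-like cells. Rpl30 and Rpl34 differed by -0.52 and -0.48 in choroid plexus-like cells, Rpl24 and Rpsa by 0.63 and 0.54 in border macrophage-like cells, Rpl10 and Rpl22l1 by 0.43 and 0.41 in immature neuron-like cells, and Rpl35 and Rpl10 by 0.79 and 0.65 in neuron-like cells. In all cells Rpl6 and Rpl24 differed by 0.13 and 0.10. None of these passed the adjusted threshold. Rpl35 and Rps28 were the RP genes with a value above 0 in all 10 classes, and both also belonged to the genes that differed most between single libraries.

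Some RP genes differed between single libraries. On the scale of CPM, 9 of 80 RP genes (11.2%) had a ratio of at least 1.5 between the highest and the lowest library, against 9.32% of the 3842 other genes with at least 1000 UMIs. The other genes were not matched to the RP genes by UMIs. Counting error adds more to the ratio of genes with few UMIs, so these shares are no like comparison. Over all cells the ratio of the highest to the lowest library, as a share of RP UMIs, was 1.13 for the median of the 80 genes but at least 1.5 for 7 of them. Rps15, a protein in the head of the small subunit, gave 1.17% and 0.711% of RP UMIs in replicates 1 and 2 of WT and 1.18% and 0.481% in those of Dp2Yey, a ratio of 2.45. Values of the next genes are in the same order. In each of the 10 tested classes both libraries numbered 1 lay above both libraries numbered 2, and Dp2Yey replicate 2 was lowest. Rpl23a, a protein at the peptide exit, showed the same order in 10 of 10 classes, with 0.707%, 0.52%, 0.718% and 0.36%. Rpl5, which binds 5S rRNA, gave 0.731%, 0.52%, 0.691% and 0.365% and was lowest in Dp2Yey replicate 2 in 10 of 10 classes. Rpl12, of the stalk base, gave 0.911%, 0.72%, 0.886% and 0.56% and was lowest there in 9. Rpl13a (0.164%, 0.125%, 0.155% and 0.107%) was lowest there in 6.

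Rpl35 and Rps28 ran the other way. Rpl35, near the peptide exit, gave 0.574%, 0.609% and 0.571% in 3 libraries and 1.02% in Dp2Yey replicate 2, which was highest in 10 of 10 classes. Its genotype difference of 0.41 in all cells (SE 0.22, unadjusted p = 0.103, adjusted p = 0.9999 in edgeR) thus rested on 1 library, with CPM of 674.3 and 658.3 in WT and 666.3 and 1098 in Dp2Yey. Rps28 gave 1.31%, 1.95%, 1.72% and 2.02%, with both libraries numbered 1 below both numbered 2 in 9 of 10 classes. These genes were chosen by their ratio, which is a description with no test. The libraries also differed in median UMIs per cell, with 2118 in WT replicate 1, 3391 in Dp2Yey replicate 1, 3703 in WT replicate 2 and 3677 in Dp2Yey replicate 2, and Dp2Yey replicate 2 had the lowest share of mitochondrial UMIs (4.11%, against 6.25% to 7.07%). The part of depth, day or preparation in these genes was not tested. Rps15 has no overlapping gene in the annotation, whereas Rpl35 overlaps Arpc5l and Wdr38 on the other strand.

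**Figure D5:**
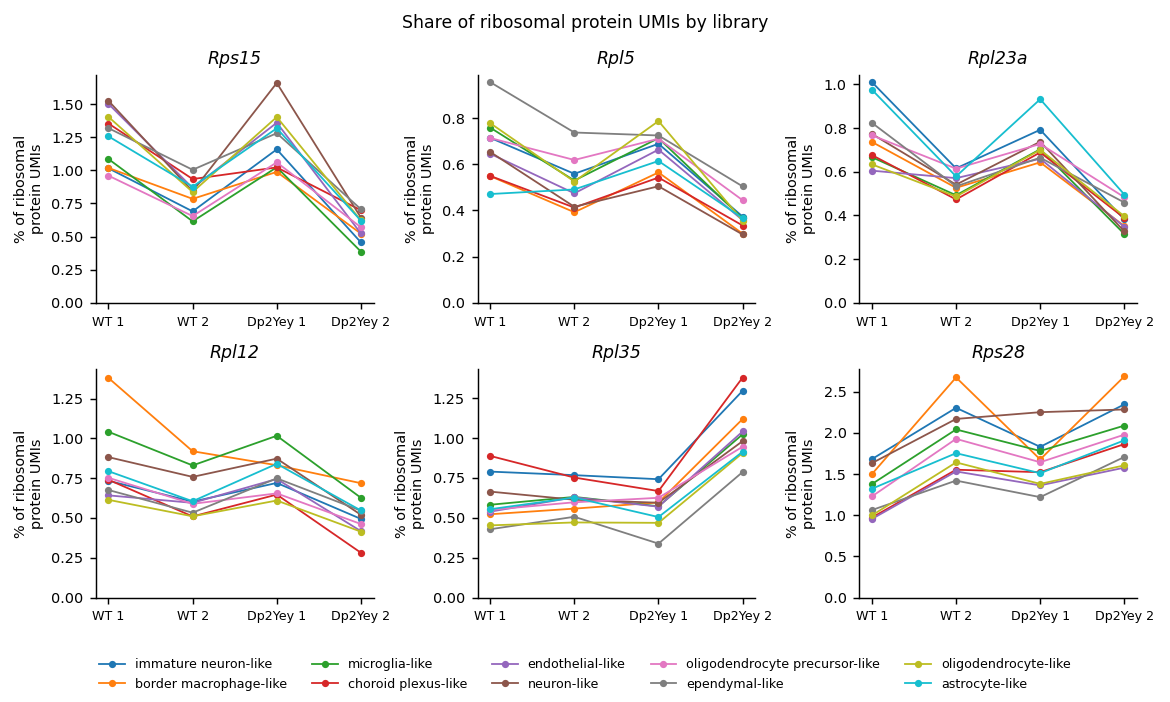
Share of RP UMIs (y axis, %) of 6 RP genes in the 4 libraries (x axis), with 1 line for each tested class, drawn only to join its points. Rps15, Rpl5 and Rpl23a are lowest and Rpl35 is highest in Dp2Yey replicate 2 in all 10 classes.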

How the data were processed

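Hippocampal cells of 4 mice were measured by droplet-based 3′ single-cell RNA sequencing after dissociation with the Adult Brain Dissociation Kit. Per the labels and the study's methods, the authors aligned reads with Cell Ranger 3.0.2 to a custom mm10 genome and deposited UMI counts per gene and cell, 1 matrix per mouse. How reads shared by near-identical genes were counted is not given in the sources used here. The replicates are separate mice.

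From these counts, cells with at least 200 genes were kept, and 1 cluster of a first clustering (35 cells), the only one with a median over 10% globin UMIs, was removed. Cells were clustered in Seurat 5.3.0 (R 4.3.3) with 2000 variable genes, 50 dimensions and a resolution of 0.2, leaving out the RP genes. A cluster was named for the class with most markers among its 10 leading genes, at least 2, a rule set after the clusters were seen. Scrublet in scanpy 1.11.5 (Python 3.11.15) marked 54 cells (0.865%) as doublets, which were kept. UMIs were summed per library and class. Classes were compared, and Dp2Yey with WT, by edgeR 4.0.16 (TMM, quasi-likelihood test, Benjamini-Hochberg adjustment over all genes, threshold 0.01), with DESeq2 1.42.0 as an alternative. The scripts were tested on simulated data.

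Members and gene lists were chosen with earlier results of these data known. Named were the 5 RP genes with most UMIs and those under 4, exceptions, paralog pairs, and, for all cells and each class, the 2 smallest p-values among genes whose genotypes did not overlap, of which those of astrocyte-like cells, like some other items, are not reported here. Other genes were named after their values were seen. Alternatives covered the scaling, the filters, the clustering, the gene rule and each library left out. Intervals are not given, and the spread of most class values is shown by the SD over libraries or by the library values.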

Additional observations from a re-analysis of the deposited data

How the results depend on the processing

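Of 623 values under alternatives, 589 stayed within the limit set for them, which for a genotype median is the SE of a gene, so that medians near 0 could change sign within it. The RP share of all cells moved from 11.2% to 11.9% with mitochondrial UMIs left out, to 11.8% without Malat1, Gm42418 and AY036118, to 9.49% as a median over cells and to 10.8% without the low-RNA microglia-like cluster, an alternative chosen after seeing the data. With TMM less the median RP difference, where the p is that of a difference from 0 and not from the RP genes, the 4 exceptions called lower became 2, without Rps27l in microglia-like (adjusted p = 0.227 in edgeR) and Rpl22l1 in border macrophage-like cells (adjusted p = 0.364). The 5 called higher stayed 5 in number, but Rpl7l1 in precursors (1.24, adjusted p = 0.0288) left and Rpl22l1 in choroid plexus-like cells (1.03, adjusted p = 1.43e-09) entered. The sizes of the 9 exceptions stayed past 1. Leaving out 1 library gave 0 to 36 RP genes called higher and 0 to 11 called lower between genotypes, where 2.16% of all genes were called higher in neuron-like cells without Dp2Yey replicate 2 and 0.419% lower in microglia-like cells without Dp2Yey replicate 1. The median RP difference of choroid plexus-like cells reversed to -0.024 with RLE size factors and -0.0255 with DESeq2, and ran from -0.0893 (without Dp2Yey replicate 2) to 0.3152 (without Dp2Yey replicate 1) with 1 library left out. That of neuron-like cells reversed to -0.35 without cells over 20% mitochondrial UMIs. The cause was not tested. Of 108 values of the exceptions under the other alternatives, 105 stayed past both limits, and the other 3 were Rpl7l1 in neuron-like cells. The replicate numbers are not known to pair the libraries. The correlation of same-numbered deviations was -0.0016 in all cells and -0.24 (choroid plexus-like) to 0.283 (endothelial-like) in the classes, and a fit with the replicate number as a block called 0 RP genes between genotypes. Counting error limits rare genes, such as Rpl7l1 with 37 UMIs in neuron-like cells. With the promoter of longest tract taken for each gene, an alternative chosen after seeing the data, 66.7% of RP genes and 35.4% of all genes held a tract.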
